A study of Mus musculus with 6 samples.

Results

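Granule cell identity genes are 10 genes that mark the excitatory granule neurons of the cerebellum: *Neurod1*, *Neurod2*, *Etv1*, *Zic1*, *Zic2*, *Pax6*, *Rbfox3*, *Slc17a7*, *Calb2* and *Reln*. They were picked by symbol from a table of 53746 genes, with earlier results of these data known, and all 10 were among the 16961 genes with enough reads to be tested. The values come from bulk sequencing of poly A-selected RNA of cerebella from 6 mice aged 2 months. The 3 control mice had the genotype N153SLSL/LSL, and the other 3 had the genotype N153SLSL/LSLPcp2-cre and are called Pcp2-cre mice here. All 6 mice therefore carried 2 copies of a *Sting1* allele with the N153S mutation, which keeps the innate immune sensor STING active without its ligand, placed behind a stop signal flanked by LoxP sites. Cre is needed to take out the stop, and the *Pcp2* promoter restricts Cre to Purkinje cells, so granule cells are not themselves meant to express the active protein. Mice 1 and 2 of each genotype were male and mouse 3 was female. The comparison asks how transcripts of granule cells, which provide the main excitatory input to Purkinje cells, stood when STING had been switched on in the Purkinje cells.

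Granule cells are the most numerous neurons of the brain. They arise from the rhombic lip, where transcription factors of the bHLH, zinc finger and paired box families set their fate, and mature granule cells receive mossy fiber input and contact Purkinje cell dendrites through glutamate-releasing parallel fibers. They also secrete proteins, among them reelin, that act on other cells of the cerebellar cortex.

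Total counts per mouse were between 6733178 and 10178218. A floor of 3 counts corresponded to 0.297 to 0.447 CPM (counts scaled to library size with edgeR's TMM factors), a limit that covers counting error only, and every member lay far above it. The engineered gene *Sting1* had 23.2, 27.2 and 26.2 CPM in control mice 1 to 3 and 44.4, 34.2 and 35.5 CPM in Pcp2-cre mice 1 to 3, so the groups did not overlap and followed the labels. The tissue label was also borne out by defining granule cell genes, since *Gabra6*, *Fat2*, *Cbln3* and *Grin2c* had 516 to 1235 CPM in every mouse, while the forebrain genes *Emx1* and *Lhx2* stayed at or below 0.263 CPM. Control mice 1 and 2 stood apart in choroid plexus genes, with a summed level of 787 and 1221 CPM over 7 markers, against 31.2 CPM in control mouse 3 and 22.4 to 84.3 CPM in the Pcp2-cre mice. In bulk RNA, fewer cells of a type and less RNA per cell cannot be told apart.

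None of the 10 granule cell identity genes passed the threshold used for differential expression, an adjusted p no higher than 0.05 together with a log2 fold change of 0.5 or more in either direction (edgeR quasi-likelihood test with Benjamini-Hochberg adjustment over all tested genes). Of all tested genes 3.17% passed it. At any fold, 1 member passed the adjusted p, *Neurod1*, which was 12.2% higher in Pcp2-cre mice, beside 7.74% of all tested genes. Among the 2563 genes with a mean of at least 100 CPM, a level that all 10 members reach, 15.2% passed at any fold and 4.17% were higher, so 1 of 10 is read as near the background. At an unadjusted p under 0.05 there were 4 members, *Neurod1*, *Zic1*, *Rbfox3* and *Slc17a7*, where 18% of all tested genes and 29.6% of those with at least 100 CPM did so. DESeq2 called 0 members at the threshold and 1 at any fold. The median log2 fold change over the 10 members was 0.02, and that of all tested genes was 0.0045.

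The data bounded the members tightly. All 10 intervals (95%) of the log2 fold change lay within 0.5 in either direction, and the bound farthest from 0 was 0.26, for *Neurod1*. The estimate was above 0 for 6 members and below 0 for 4, and 51.3% of all tested genes had an estimate above 0. In 4 members the lowest Pcp2-cre mouse lay above the highest control mouse, where 10.8% of all tested genes and 11.9% of those with at least 100 CPM did so. In 0 members was the reverse the case, against 11.4% of all tested genes, and in the remaining 6 the groups overlapped. In either direction, 22.2% of all tested genes had groups without overlap.

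**Figure D1:**
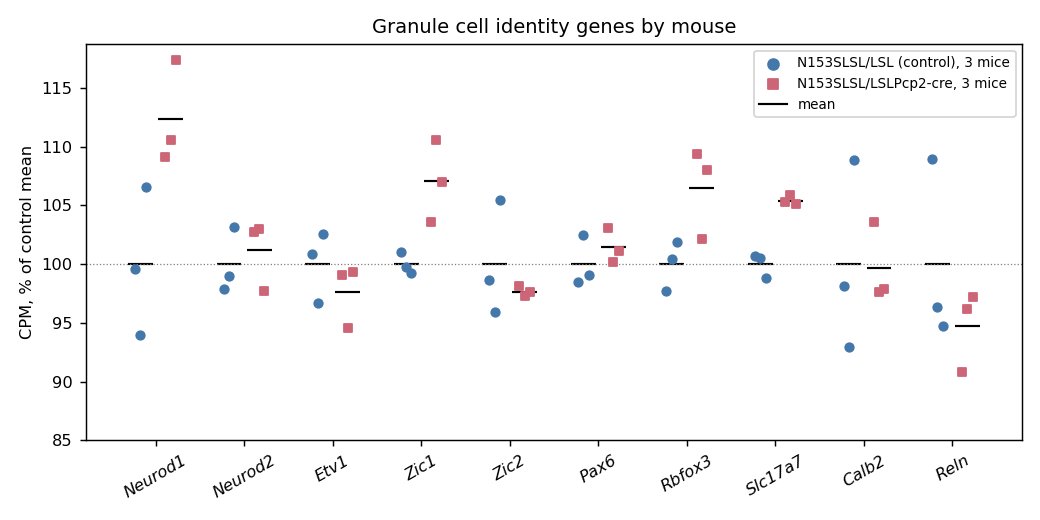
Level of each granule cell identity gene in each mouse as a percentage of the control mean (vertical axis, CPM), with 3 control mice as circles, 3 Pcp2-cre mice as squares and a line at each group mean. All Pcp2-cre squares lie above the control circles for *Neurod1*, *Zic1*, *Rbfox3* and *Slc17a7*, and the groups overlap for the other 6 genes.

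The transcription factors come first. *Neurod1* and *Neurod2* encode bHLH factors that drive neuronal differentiation, and granule cells need *Neurod1* to mature. Their coding sequences are similar in part. The most similar stretch of 1 read length (150 bases) is printed for the pair, read from GRCm39 in the orientation of the gene. Capitals mark the bases at which the 2 genes differ.
Neurod1, chr2:79284921-79285070, reverse strand: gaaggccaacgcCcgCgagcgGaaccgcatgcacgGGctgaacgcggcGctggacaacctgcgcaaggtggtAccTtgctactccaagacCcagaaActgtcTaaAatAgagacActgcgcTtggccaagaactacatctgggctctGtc
Neurod2, chr11:98218639-98218788, reverse strand: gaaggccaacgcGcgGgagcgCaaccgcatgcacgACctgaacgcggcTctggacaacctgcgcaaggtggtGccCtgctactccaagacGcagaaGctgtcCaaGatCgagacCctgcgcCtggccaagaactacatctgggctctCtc
The stretch lies in the coding exon of both genes and holds 16 differing bases of 150. The longest run identical between the 2 coding sequences is 25 bases. No 150-base stretch of the 2 coding sequences, compared without gaps, is therefore identical. How the study's counting treated reads that map to several genes is not given in the sources used here.

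*Neurod1* (ENSMUSG00000034701, chromosome 2, 79282865 to 79287294 of GRCm39, reverse strand) had 359, 339 and 384 CPM in control mice 1 to 3 and 393, 398 and 423 CPM in Pcp2-cre mice 1 to 3. Every Pcp2-cre mouse was above every control mouse, although the lowest Pcp2-cre value and the highest control value were close. The log2 fold change was 0.17 (SE, the standard error, 0.0461, 95% interval 0.07 to 0.26, adjusted p = 0.0282), from means of 360.4 ± 22.7 and 405 ± 16 CPM (SD, n = 3 mice each). With each mouse left out in turn it was 0.12 to 0.21 with an adjusted p of 0.00125 to 0.186, and it kept the call only when control mouse 3 was left out. That control mouse had the highest *Neurod1* of its group, was the only female control and had the lowest summed choroid plexus level among controls (31.2 CPM). Its level of the choroid plexus marker *Clic6* was 11.0 CPM, still above the 1.58 to 2.66 CPM of the Pcp2-cre mice. Without control mice 1 and 2, a choice made after seeing the data, control mouse 3 was the only control left. The log2 fold change of *Neurod1* was then 0.07. Sex and choroid plexus tissue cannot be told apart in that fit, and the part of either was not tested. *Neurod1* had a log2 fold change of 0.17 with sex as covariate (adjusted p = 0.00503) and 0.18 in males only (adjusted p = 0.0121). Its exons share 204 bases with *Cerkl* on the same strand, which had 148 to 254 counts per mouse beside 2274 to 3875 for *Neurod1*.

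*Neurod2* (ENSMUSG00000038255, chromosome 11, 98216241 to 98220480, reverse strand) had 114, 116 and 121 CPM in control mice and 120.1, 120.4 and 114 CPM in Pcp2-cre mice. The groups overlapped over a narrow range, and the log2 fold change was 0.02 (SE 0.0423, adjusted p = 0.903). Within a mouse, the log2 ratio of *Neurod1* to *Neurod2* counts, which does not depend on library scaling, was 1.65, 1.55 and 1.67 in control mice and 1.71, 1.73 and 1.89 in Pcp2-cre mice. All 3 Pcp2-cre ratios were above the control ratios, by 0.15 on average (exact permutation test, two-sided, p = 0.10, adjusted over 7 ratios 0.175). With 3 mice against 3, 0.10 is the smallest p this test can give, so no ratio could pass 0.05. Without Pcp2-cre mouse 3, which had the highest ratio, the difference was 0.10. Of the other bHLH genes examined, *Neurod6*, a forebrain gene, had 4.73 to 7.36 CPM, and *Neurod4*, *Neurog1* and *Neurog2* were too low to test.

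*Zic1* and *Zic2* encode zinc finger factors that act early in granule cell precursors and remain expressed in mature granule cells. They too have similar stretches, and the most similar one is shown in the same way, with capitals at the differing bases.
Zic1, chr9:91246198-91246347, reverse strand: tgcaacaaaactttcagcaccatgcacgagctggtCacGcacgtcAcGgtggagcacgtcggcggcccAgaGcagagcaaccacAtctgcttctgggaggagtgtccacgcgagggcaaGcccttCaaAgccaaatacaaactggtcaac
Zic2, chr14:122713901-122714050, forward strand: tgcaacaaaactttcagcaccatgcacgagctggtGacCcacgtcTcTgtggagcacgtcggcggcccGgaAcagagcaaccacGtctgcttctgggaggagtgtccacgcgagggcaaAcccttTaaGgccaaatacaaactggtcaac
This stretch lies in the first coding exon of each gene and differs at 10 of 150 bases, fewer than in any other member and relative compared. Over the whole coding sequences, the longest run shared by *Zic1* and *Zic2* is 35 bases and that shared by *Zic1* and *Zic4* is 42 bases.

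*Zic1* (ENSMUSG00000032368, chromosome 9, 91240111 to 91247863, reverse strand) had 892, 880.4 and 876 CPM in control mice and 915, 976 and 944 CPM in Pcp2-cre mice. All Pcp2-cre mice were above all control mice, and the control mice differed little among themselves, with a coefficient of variation of 0.928%. The log2 fold change was 0.10 (SE 0.0349, 95% interval 0.03 to 0.17), and the adjusted p of 0.103 missed the threshold. Scaled by total counts alone, without TMM factors, *Zic1* had a log2 fold change of 0.13 and passed at any fold (adjusted p = 0.0251).

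*Zic2* (ENSMUSG00000061524, chromosome 14, 122711827 to 122717264, forward strand) had 225, 219 and 241 CPM in control mice and 224, 222 and 223 CPM in Pcp2-cre mice. The Pcp2-cre values lay inside the control range and close together, and the log2 fold change was -0.04 (SE 0.0439, adjusted p = 0.749). The log2 count ratio of *Zic1* to *Zic2* was 1.99, 2.01 and 1.86 in control mice and 2.03, 2.14 and 2.08 in Pcp2-cre mice, 0.13 higher on average and without overlap (exact permutation p = 0.10, adjusted 0.175), and 0.09 higher without control mouse 3. Of *Zic2* exon bases, 31.5% are shared with the antisense RNA *2610035F20Rik*, which had 123 to 210 counts per mouse. *Zic1* shares 172 exon bases with *Zic4* on the other strand, and since the use of strand in counting is not given, reads from these bases cannot be assigned with certainty.

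*Zic4* and *Zic5* were measured as relatives. *Zic5*, the neighbor of *Zic2* in the genome, had 78.6, 72.5 and 76.2 CPM in control mice and 89.2, 85.8 and 79.6 CPM in Pcp2-cre mice. Its groups did not overlap, and its log2 fold change was 0.16 (SE 0.0526, adjusted p = 0.0654). *Zic4* had a log2 fold change of 0.06 (adjusted p = 0.552). Of the 4 ZIC genes described here, 0 passed at any fold by edgeR or by DESeq2, 2 had an unadjusted p under 0.05 by edgeR (*Zic1* and *Zic5*, beside 18% of all tested genes), and 3 of the 4 estimates were above 0.

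*Etv1* encodes an ETS factor of the PEA3 group that takes part in the activity-dependent maturation of granule cells. It (ENSMUSG00000004151, chromosome 12, 38828851 to 38920483, forward strand) had 556, 533 and 565 CPM in control mice and 546, 522 and 548 CPM in Pcp2-cre mice. The groups overlapped, with a log2 fold change of -0.04 (SE 0.0383, adjusted p = 0.715). Its relative *Etv5*, which is also found in glia, fell in Pcp2-cre mice, from 95.6, 91.1 and 95.1 CPM to 83.9, 77.6 and 84.9 CPM (log2 fold change -0.20, SE 0.0489, adjusted p = 0.0115). *Etv5* lost its call in 4 of 19 alternatives, which were DESeq2 (adjusted p = 0.14), the fit without Pcp2-cre mouse 2 (0.0811) and the FPKM fits. Its log2 fold change was below 0 in all 19 alternatives. *Etv4* had 14 to 20.4 CPM and a log2 fold change of -0.25 (adjusted p = 0.246).

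*Pax6* encodes a paired box and homeodomain factor of the rhombic lip lineage. It (ENSMUSG00000027168, chromosome 2, 105499234 to 105530952, forward strand) had 124, 129 and 125 CPM in control mice and 129.9, 126 and 127 CPM in Pcp2-cre mice. The groups overlapped within a narrow range, and the log2 fold change was 0.02 (SE 0.0396, adjusted p = 0.842). It shares 21.1% of its exon bases with *Elp4* on the opposite strand, which had 98 to 176 counts per mouse. *Pax2* and *Pax3*, the other PAX genes that could be tested, had 7.77 to 12.9 CPM and log2 fold changes of 0.15 (adjusted p = 0.594) and 0.19 (adjusted p = 0.637). Of the 3 PAX genes tested, 0 passed, 0 had an unadjusted p under 0.05 by edgeR, and DESeq2 called 0.

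*Rbfox3* encodes the RNA-binding splicing regulator known as NeuN, a nuclear marker of most neurons that is abundant in granule cells and missing from Purkinje cells. It (ENSMUSG00000025576, chromosome 11, 118380442 to 118802423, reverse strand) had 388, 399 and 404 CPM in control mice and 434, 405 and 429 CPM in Pcp2-cre mice. The groups did not overlap, but Pcp2-cre mouse 2 and control mouse 3 lay close together. The log2 fold change was 0.09 (SE 0.0398, 95% interval 0.01 to 0.17, adjusted p = 0.224).

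The paralog *Rbfox2*, which is expressed in Purkinje cells as well, fell from 366, 365 and 361 CPM to 333, 328 and 321 CPM. No Pcp2-cre mouse reached the control range, and the log2 fold change was -0.15 (SE 0.0382, adjusted p = 0.0127). The call was lost in 7 of 19 alternatives, among them the fits without control mouse 1, Pcp2-cre mouse 2 or Pcp2-cre mouse 3, in which the highest adjusted p was 0.0813. *Rbfox1* had 208 to 238 CPM and a log2 fold change of -0.01 (adjusted p = 0.942). The log2 count ratio of *Rbfox3* to *Rbfox1* was 0.82 ± 0.106 in control and 0.91 ± 0.0248 in Pcp2-cre mice (SD, n = 3 each, exact permutation p = 0.30, adjusted 0.42), with overlap. The ratio to *Rbfox2*, added after values had been seen and so given without a test, was 0.09, 0.13 and 0.16 in control mice and 0.38, 0.31 and 0.42 in Pcp2-cre mice.

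**Figure D2:**
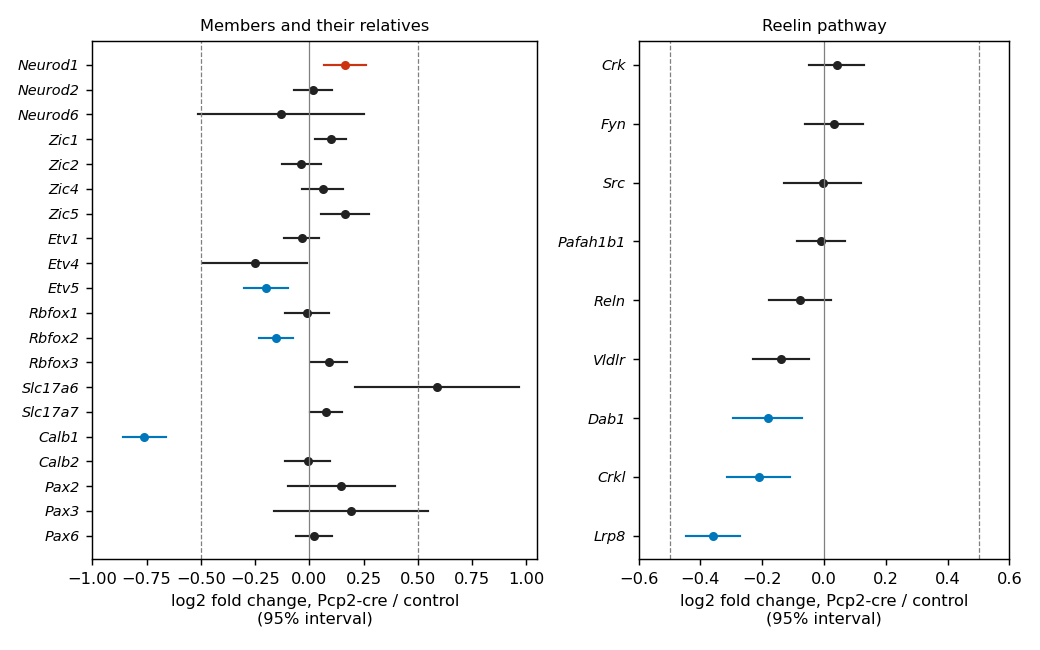
Log2 fold change (horizontal axis, Pcp2-cre over control, with 95% interval) of the members and their family relatives at left and of the reelin pathway at right, with dashed lines at 0.5 in either direction. Colored points passed an adjusted p of 0.05 at any fold, red for higher and blue for lower, and *Calb1* at -0.76 is the only colored point beyond the dashed lines.

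*Slc17a7* encodes the vesicular glutamate transporter VGLUT1, which fills synaptic vesicles of parallel fibers. It (ENSMUSG00000070570, chromosome 7, 44813305 to 44825644, forward strand) had 492, 492 and 483 CPM in control mice and 515, 517 and 514 CPM in Pcp2-cre mice. Both groups were tight, with coefficients of variation of 1.06% and 0.376%, and they did not overlap. The log2 fold change was 0.08 (SE 0.0358, 95% interval 0.0014 to 0.15), and the adjusted p was 0.264.

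*Slc17a6* encodes VGLUT2, the transporter of climbing fibers and cerebellar nuclear neurons. It had 9.98, 5.51 and 13.3 CPM in control mice and 14.8, 14.5 and 15.8 CPM in Pcp2-cre mice. The Pcp2-cre values lay above a wide control range, and the log2 fold change of 0.59 (SE 0.181) had an adjusted p of 0.0516, just outside the threshold, so that the edgeR quasi-likelihood test and DESeq2 called 0 of these transporters and the edgeR likelihood ratio test called 1. The log2 count ratio of *Slc17a7* to *Slc17a6* was 5.62, 6.46 and 5.18 in control mice and 5.12, 5.15 and 5.01 in Pcp2-cre mice, lower by 0.66 on average and without overlap (exact permutation p = 0.10, adjusted 0.175). Without control mouse 2 the difference was -0.30, and with FPKM in place of counts it was -0.67 with an exact permutation p of 0.30. *Slc17a8*, encoding VGLUT3, was too low to test. Against *Gabra6*, the GABA-A receptor subunit particular to granule cells, the log2 ratio of *Slc17a7* was -0.22 ± 0.0319 in control and -0.21 ± 0.0325 in Pcp2-cre mice (exact permutation p = 0.70, adjusted 0.70), with overlap.

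*Calb2* encodes calretinin, the calcium-binding protein that buffers calcium in granule cells. It (ENSMUSG00000003657, chromosome 8, 110864128 to 110894881, reverse strand) had 328, 311 and 364 CPM in control mice and 346, 326 and 327 CPM in Pcp2-cre mice. Control mice spread wider than Pcp2-cre mice and enclosed them, and the log2 fold change was -0.0067 (SE 0.0498, adjusted p = 0.97). Its sign depended on the scaling, being 0.02 with total counts alone. The related *Calb1* encodes calbindin, the calcium buffer of Purkinje cells. It fell from 813, 838 and 761 CPM to 513, 443 and 468 CPM, and the log2 count ratio of *Calb2* to *Calb1* went from -1.31, -1.43 and -1.06 in control mice to -0.57, -0.44 and -0.52 in Pcp2-cre mice (exact permutation p = 0.10, adjusted 0.175).

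*Reln* encodes reelin, a large secreted glycoprotein that granule cells release and that binds the receptors encoded by *Vldlr* and *Lrp8*. *Reln* (ENSMUSG00000042453, chromosome 5, 22089452 to 22549700, reverse strand) had 479.7, 424 and 417 CPM in control mice and 399.7, 423 and 428 CPM in Pcp2-cre mice. One control mouse was well above the other 5 mice, which overlapped. The log2 fold change was -0.08 (SE 0.0483, 95% interval -0.18 to 0.02, adjusted p = 0.441), and in percent the interval reached from -11.7 to 1.58. Without control mouse 1 it was -0.01.

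The reelin pathway, a list of 9 genes, was examined from ligand to effectors. At the threshold 0 of 9 passed. At any fold 3 fell and 0 rose by edgeR, beside 4.75% and 2.99% of all tested genes, and DESeq2 called 1. Among genes with a mean of at least 100 CPM, which all but *Dab1* and *Src* reach, 15.2% passed at any fold in either direction. The receptor gene *Lrp8* fell from 156, 156 and 150.2 CPM to 124, 121 and 115 CPM, with no overlap (log2 fold change -0.36, SE 0.0416, adjusted p = 3.16e-06), and was called in all 19 alternatives. *Vldlr*, the other receptor gene, had 186, 192 and 185 CPM in control mice and 175, 162 and 174 CPM in Pcp2-cre mice. Its groups did not overlap, with a log2 fold change of -0.14 (SE 0.0435, adjusted p = 0.0539).

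Of the intracellular part, *Dab1*, the adaptor phosphorylated when reelin binds, fell by 0.18 on the log2 scale (adjusted p = 0.04) with overlapping groups, and it lost its call in 10 of 19 alternatives, with an adjusted p of 0.267 by DESeq2. *Crkl*, an adaptor that binds phosphorylated *Dab1* protein, fell from 112, 109 and 115 CPM to 101, 99.3 and 88.8 CPM (log2 fold change -0.21, adjusted p = 0.00743). Its call was lost in 5 of 19 alternatives, with an adjusted p of up to 0.216. These were DESeq2 (adjusted p = 0.0607), the fit without Pcp2-cre mouse 3 (0.0592), males only and the FPKM fits. The kinase genes *Fyn* and *Src*, the adaptor gene *Crk* and the dynein regulator gene *Pafah1b1* had log2 fold changes between -0.01 and 0.04 and overlapping groups. The log2 count ratio of *Reln* to *Dab1* was 2.18 ± 0.107 in control and 2.28 ± 0.105 in Pcp2-cre mice (exact permutation p = 0.40, adjusted 0.467), and that of *Reln* to *Lrp8*, added after values had been seen and not tested, was 1.51 ± 0.0963 and 1.80 ± 0.102. Receptors and *Dab1* are known from Purkinje cells, and the summed level of 10 Purkinje cell markers was also lower in the same mice, as given with the other cell types. Its part in the lower pathway genes was not tested.

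**Figure D3:**
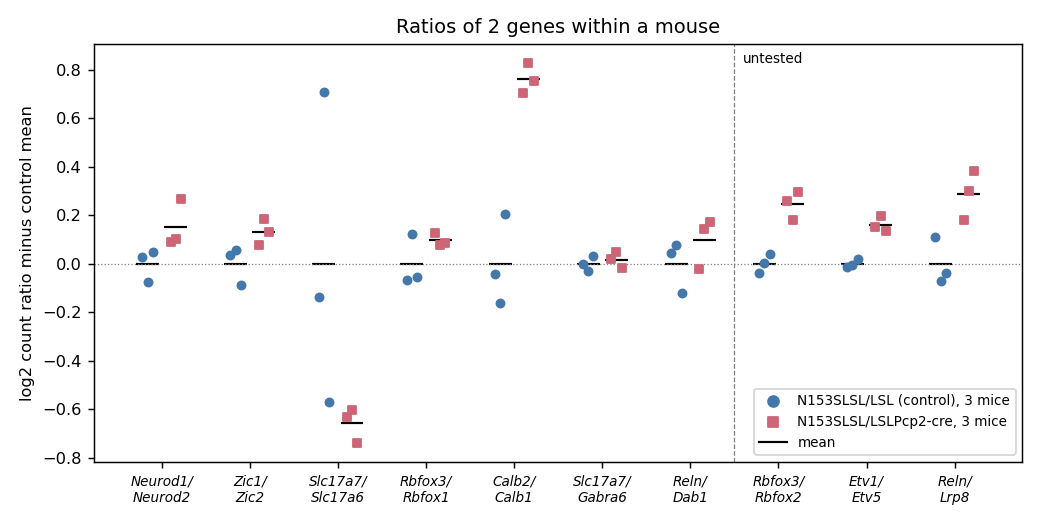
Log2 count ratio of 2 genes within each mouse, with the control mean subtracted (vertical axis), for 3 control mice as circles and 3 Pcp2-cre mice as squares, with lines at group means. The 3 Pcp2-cre squares lie above the control circles for *Neurod1*/*Neurod2*, *Zic1*/*Zic2* and *Calb2*/*Calb1* and below them for *Slc17a7*/*Slc17a6*, and the 3 ratios right of the dashed line were chosen after values had been seen.

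Levels can be set side by side between genes only per transcript length, so the deposited FPKM values (fragments per kilobase of exon, scaled to library size) were used for the order of the members. In control mice *Calb2* was highest at 221 ± 15.4 FPKM (SD, n = 3), followed by *Zic1* at 168 ± 4.28, *Slc17a7* at 159.6 ± 0.569, *Neurod1* at 129 ± 6.6, *Rbfox3* at 122 ± 3.36 and *Etv1* at 103 ± 8.03 FPKM. *Zic2* at 81.5 ± 1.38, *Reln* at 41.2 ± 4.18, *Pax6* at 36.0 ± 0.415 and *Neurod2* at 31.6 ± 0.715 FPKM were lower. Of neighbors in this order, *Neurod1* and *Rbfox3* overlapped between control mice, and all others were separated. The order of the means was the same in Pcp2-cre mice, from *Calb2* at 225 to *Neurod2* at 32.6 FPKM, where *Zic1* overlapped *Slc17a7* and *Reln* overlapped *Pax6*. The rank was identical in every mouse for 6 of 10 members.

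**Figure D4:**
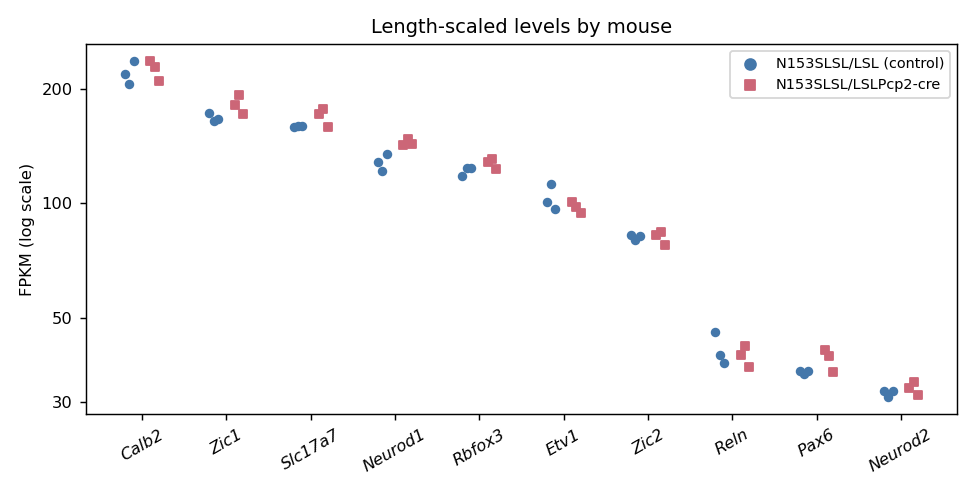
Length-scaled level (FPKM, log axis) of each member in 3 control mice (circles) and 3 Pcp2-cre mice (squares), ordered by the control mean. *Calb2* is highest and *Neurod2* lowest in both genotypes, and the means of the genotypes give the same order of genes.

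Across mice, the members varied little. The coefficient of variation of CPM among control mice was largest for *Calb2* (8.11%), *Reln* (7.80%) and *Neurod1* (6.30%), and among Pcp2-cre mice it was at most 3.95%. Averaged over the 10 members, the log2 deviation from the control mean was 0.0030, -0.0317 and 0.0287 in control mice 1 to 3. In Pcp2-cre mice 1 to 3 it was 0.0344, 0.0246 and 0.0387, and the groups overlapped. The summed level, in which abundant genes weigh most, was 3958, 3841 and 3979 CPM in control mice. It was 4023, 4037 and 4077 CPM in Pcp2-cre mice, which were above. Over the same mice, 10 Purkinje cell markers deviated by 0.0097, 0.03 and -0.04 in control mice and by -0.59, -0.76 and -0.71 in Pcp2-cre mice. Genes outside the set whose log2 CPM followed the members' mean most closely over the 6 mice were *Slc25a15* and *Limd2* (Pearson r 0.993 each) and *Ptpn12* (r 0.991), out of 11372 genes with a mean of at least 10 CPM. These 3 genes came from a search over many genes and few mice, shared libraries and depth with the members, and none passed the adjusted p (0.334 to 0.519).

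Other genes of granule cells, a list of 21 with 20 tested, gave values of the same kind. At the threshold 0 of 20 passed by edgeR and by DESeq2, at any fold 1 passed by either, and 3 had an unadjusted p under 0.05, against 7.74% and 18% of all tested genes. The gene that passed was *Kcnk9*, encoding the leak potassium channel TASK-3, which rose from 293, 278 and 299.8 CPM to 336, 331 and 339.5 CPM. Its groups were well separated, with a log2 fold change of 0.21 (SE 0.0410, adjusted p = 0.00177), and it was above 0 in all 19 alternatives and called in all but 3, which were the FPKM fits and the fit without control mice 1 and 2. *Cntn2*, encoding an adhesion molecule of parallel fibers, had 523, 514 and 540.3 CPM in control mice and 576, 572 and 559 CPM in Pcp2-cre mice, and its log2 fold change of 0.11 missed the threshold (adjusted p = 0.0691). *Nfia*, a transcription factor gene, had a log2 fold change of 0.09 (adjusted p = 0.253) with overlap.

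The defining granule cell genes all had overlapping groups. *Gabra6* had 576, 586 and 551 CPM in control mice and 594, 585 and 607 CPM in Pcp2-cre mice, a log2 fold change of 0.06 (adjusted p = 0.441). *Fat2*, encoding a large cadherin, had a log2 fold change of 0.05 (adjusted p = 0.553). *Cbln3*, encoding a secreted partner of cerebellin, had 0.01 (adjusted p = 0.875), *Barhl1*, a homeobox gene, had -0.02 (adjusted p = 0.948), and *Grin2c*, encoding an NMDA receptor subunit, had -0.0018 (adjusted p = 0.993). *Atoh1*, the factor of granule cell precursors, had 0 counts in all 6 mice, which allows at most 0.297 to 0.447 CPM. Over the 20 tested genes the median log2 fold change was 0.05, 14 estimates were above 0 and 6 below, and all 20 intervals lay within 0.5 in either direction. Without overlap, 4 genes were above and 2 were below in Pcp2-cre mice, against 10.8% and 11.4% of all tested genes.

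**Figure D5:**
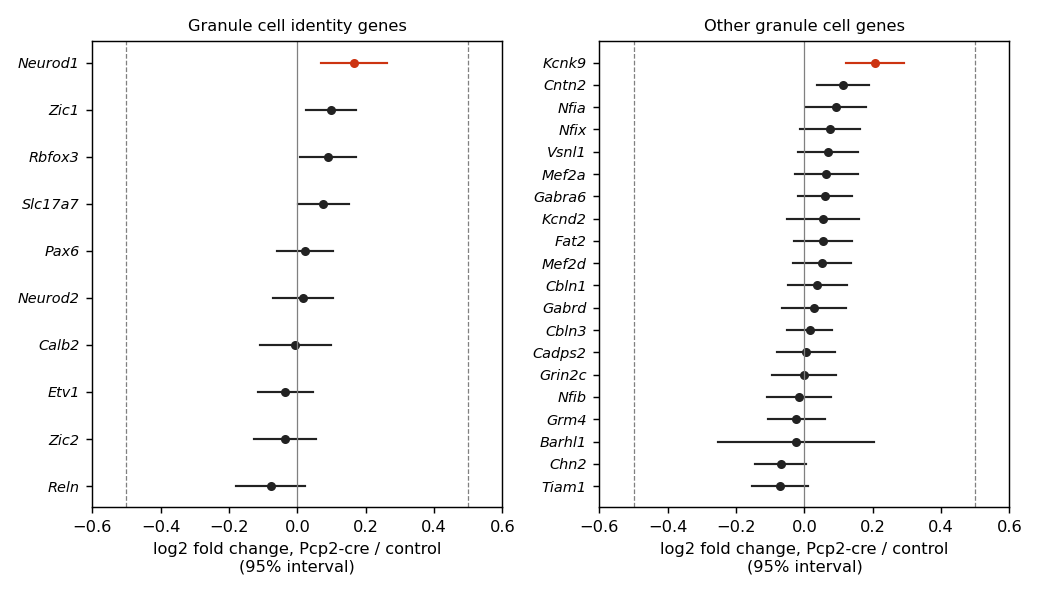
Log2 fold change (horizontal axis, Pcp2-cre over control) with its 95% interval for the 10 granule cell identity genes at left and 20 other granule cell genes at right, with dashed lines at 0.5 in either direction. All 30 intervals lie between the dashed lines, and the red points, *Neurod1* and *Kcnk9*, passed an adjusted p of 0.05.

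Several members are also expressed by other cells of the cerebellum, and markers of those cells were measured in the same libraries. Unipolar brush cells express *Calb2*, and their defining marker *Eomes* had 47.4 to 52.4 CPM in control and 44.7 to 54.3 CPM in Pcp2-cre mice, a log2 fold change of 0.0060 (adjusted p = 0.982). *Lmx1a*, the other defining marker, was at 0.444 to 2.08 CPM. Of 7 inhibitory interneuron markers 0 passed at any fold by edgeR or DESeq2 and 0 had an unadjusted p under 0.05, and their sum was 436 to 462 CPM in control and 422 to 459 CPM in Pcp2-cre mice. The ranges of the genotypes overlapped for *Eomes*, *Lmx1a* and the interneuron sum. A further gene measured for unipolar brush cells, *Plcb4*, which Purkinje cells also express, fell, with 379 to 405 CPM in control and 319.7 to 337 CPM in Pcp2-cre mice (log2 fold change -0.24, adjusted p = 4.29e-04), and the sum over these 3 genes was 428 to 459 CPM in control and 375 to 390.0 CPM in Pcp2-cre mice, without overlap. Its part in the values of *Calb2* was not tested.

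Markers of other cell types moved. All 10 Purkinje cell markers fell at any fold and 7 of them at the threshold, beside 1.79% of all tested genes that were lower at the threshold, and their sum was 7946 to 8691 CPM in control and 4572 to 5021 CPM in Pcp2-cre mice. Of 8 microglia markers 6 rose at the threshold, with sums of 108 to 109 and 259 to 283 CPM, beside 1.37% of all tested genes. Among 8 astrocyte and Bergmann glia markers, 3 rose and 2 fell at any fold, beside 2.99% and 4.75% of all tested genes, and *Gfap* had the largest change (log2 fold change 1.94). Of 7 oligodendrocyte markers 5 rose at any fold by edgeR, beside 2.99% of all tested genes, and 4 by DESeq2. These shifts were seen in the same mice as the higher values of *Neurod1*, *Zic1*, *Rbfox3* and *Slc17a7*, and their part in those small differences was not tested. With 4 ways of scaling the libraries, the log2 fold change of *Neurod1* ranged from 0.16 to 0.19 and that of *Slc17a7* from 0.07 to 0.10, and the median of all genes stayed between 0.0027 and 0.03.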

How the data were processed

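Cerebellar RNA of 3 N153SLSL/LSLPcp2-cre and 3 N153SLSL/LSL mice at 2 months of age was compared. Groups, sex and mouse numbers came from the sample labels. The columns of the deposited tables were matched to the mice of each genotype by number. This match is an assumption, and the sex given for each column rests on it. The authors trimmed paired reads of 150 bases from poly A-enriched libraries, mapped them to GRCm39 with STAR and used featureCounts and StringTie with Gencode features. Versions, the Gencode release, strand use and multi-mapping are not given in the sources used here. The deposited tables hold raw counts of 53746 genes and FPKM values of 55005 genes. The counts were taken as the featureCounts output because they are whole numbers, and replicates were not pooled. Libraries of 1 genotype differed beyond counting noise (chi-square per gene 1.38 to 3.62), so each was counted once. Separate mice are the replicates, and their low number limits precision.

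edgeR 4.0.16 under R 4.3.3 was used on the counts (filterByExpr, TMM, quasi-likelihood test) over 16961 genes, with Benjamini-Hochberg adjustment over all of them. The call required an adjusted p no higher than 0.05 together with a log2 fold change of 0.5 or more in either direction, or the adjusted p alone (any fold). Log2 ratios of 2 genes used counts plus 0.5 and a two-sided exact permutation test over mice. FPKM values were used for levels and, as log2 after adding 1 or 0.1 to genes with at least 0.1 FPKM in 3 mice, in limma 3.58.1. Results were recomputed with edgeR's likelihood ratio test, DESeq2 1.42.0, other scaling, other filters on low counts, a replicate block, sex as covariate, males only, FPKM, and each mouse left out. The fit without control mice 1 and 2, the background among genes of at least 100 CPM and 3 of the ratios were chosen after seeing the data. That fit left control mouse 3, a female, as the only control. Scripts were tested on simulated data.

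Members and lists were chosen with earlier results of these data known. Every member is named, relatives and the reelin pathway are named from fixed lists, and of other granule cell genes those called, the 3 with the smallest p and 5 defining ones are named. The 3 genes most like the members are named by Pearson r. Positions, exon overlaps and coding windows came from Gencode M39 on GRCm39, with 1 canonical transcript per gene, compared without gaps. Some single genes of the lists are not reported here.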

Additional observations from a re-analysis of the deposited data

How the results depend on the processing

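Of 366 alternative values, 316 kept their direction and side of the threshold or stayed close, and the count of members past the threshold was 0 in every fit (1 at any fold). The count of members at any fold was 0 with the edgeR likelihood ratio test, with FPKM after adding 1 or 0.1, and without control mice 1 and 2, it was 2 with total counts alone, and 0 to 1 with each mouse left out, where only the fit without control mouse 3 kept *Neurod1*. For other granule cell genes it was 2 with total counts alone, upper quartile scaling or males only, 0 with FPKM after adding 1 or 0.1 and without control mice 1 and 2, and 1 to 2 with each mouse left out (2 without control mouse 3), while at any fold in place of the threshold their count was 1. All genes past the threshold numbered 537, and 345 with FPKM after adding 1, 1312 at any fold and 426 to 632 with each mouse left out. The members' median of 0.02 was 0.0466 with total counts alone, 0.0672 in males only, 0.0540 and 0.0549 with FPKM after adding 1 or 0.1, and 0.00334 to 0.0497 with each mouse left out (0.0497 without control mouse 3).

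*Neurod1* lost its call with the likelihood ratio test (log2 fold change 0.17, adjusted p = 0.0559), with FPKM after adding 1 or 0.1 (0.17 each, adjusted p = 0.158 and 0.156), without control mice 1 and 2 (0.0750), and when any mouse but control mouse 3 was left out (range 0.123 to 0.212), and *Zic1* gained one with total counts alone (0.13). Values near 0 changed sign: *Calb2* with total counts (0.0205), upper quartile scaling (0.00493), males only (0.0728), FPKM after adding 1 or 0.1 (0.0277 and 0.0278) and single mice left out (-0.0562 to 0.0588), *Zic2* in males only (0.00557) and with single mice left out (-0.0654 to 0.00369), *Neurod2* with single mice left out (-0.00251 to 0.0405) and without control mice 1 and 2 (-0.0279), *Slc17a7*/*Gabra6* with single mice left out (-0.000449 to 0.0321) and *Reln*/*Dab1* in males only (-0.000638). The cause of these changes of call and sign was not tested.

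Mouse numbers are shared by the genotypes, but the deviations of same-numbered mice correlated at 0.0278, 0.0448 and 0.13, so the numbers were not taken as pairs, and sex, which they follow, was tried as a covariate. With the replicate block *Neurod1* had a log2 fold change of 0.17 (adjusted p = 0.0106), and the block changed no member's call. Every member had at least 772 counts in each mouse, and neither depth nor the number of mice was varied beyond the fits above.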
